A study of Homo sapiens with 6 samples.

Results

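The H456 sublibrary was the part of a genome-wide CRISPR interference (CRISPRi) screen that was delivered to cells as one pool, and it was sorted once into a bottom and a top quartile of fluorescence. An sgRNA was taken as a member when it had at least 50 reads in either H456 library and a larger share of reads in H456 than in the other sublibraries, H17 and H23. In all, 37913 of 103566 analysed sgRNAs met this rule, of which 37174 were directed against genes and 739 were nontargeting controls (NTC). They gave values for 7014 genes, of 19156 gene entries over the 3 sublibraries. Of these 7014 genes, 168 also had a value in another sublibrary and so have more than 1 entry. Among the 168, the H456 values of 111 rested on only 2 or 3 sgRNAs. The screen asked which genes alter the abundance of an opioid receptor after its agonist. A clonal line of HEK293 FLP-In cells, a human embryonic kidney line into which transgenes are placed by recombination, carried the receptor fusion pUBC-SSF-DORmct-APEX2, a delta opioid receptor with a recycling sequence of the mu opioid receptor that was expressed from the ubiquitin C promoter, together with dCas9-KRAB-BFP. Both quartiles came from cells that had received sgRNA lentivirus at a multiplicity of about 0.2 and puromycin at 0.75 µg/ml for 3 days, and that were grown for 8 days in all. Both were then given the opioid peptide DADLE at 10 µM for 90 min, Amplex UltraRed (AUR) at 100 µM for 15 min in all, H2O2 at 50 µM for 1 min and azide at 1 mM. The methods of the study give other times for the agonist and the knockdown than these labels do. No library of unsorted cells, of cells without agonist or of a second sort was analysed here, so the H456 pool had 1 library per quartile and no replicate.

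CRISPRi silences a gene by bringing an inactive Cas9 with a KRAB repressor domain to its promoter. APEX2 is a peroxidase that converts AUR to a fluorescent product in the presence of H2O2, so a cell with more receptor-APEX2 reached by the substrates is brighter. A receptor that is internalized after agonist reaches early endosomes, which are marked by RAB5 proteins. From there it is either sorted back to the surface or sent to lysosomes and degraded. Making a membrane protein takes transcription, mRNA processing and export, and ribosomes. Ribosomes are assembled in the nucleolus, where the small-subunit processome folds and cleaves the precursor of 18S rRNA, box H/ACA and box C/D ribonucleoproteins modify it, and a separate set of factors builds the large subunit.

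For each sgRNA the log2 ratio of its read shares, top over bottom quartile, was centred on the NTC median and is called its phenotype. A negative phenotype means that cells with this sgRNA were more frequent among the dim cells, and a positive one that they were more frequent among the bright cells. The bottom quartile library held 50486627 reads and the top quartile library 29611047, with medians of 1189 and 694 reads per member sgRNA. Members took 98.3% of the reads of each of these libraries, and from 0.726% to 0.986% of those of the H17 and H23 libraries. The NTC sgRNAs had a phenotype SD of 0.30, against a median counting error of 0.068. Their SD went from 0.725 at up to 500 reads in both libraries together to 0.16 above 4000 reads. The spread between sgRNAs was therefore several times that of read counting, and it was widest for sgRNAs with few reads. The sample titles state the quartile, while the last letter of each library name points to the other one. The titles were used, and the signs below rest on them.

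Of the 7014 H456 genes, 26 passed an adjusted P of 0.05 (0.371%) when sgRNAs were compared with the NTC sgRNAs (Mann-Whitney U test, exact and two-sided). Of these, 20 were negative (0.285% of genes tested) and 6 were positive (0.0855%). In the same test 48 of 6086 genes passed in H23 (0.789%) and 12 of 6056 in H17 (0.198%), and the differences between sublibraries were not tested. Before adjustment 567 H456 genes (8.08%) had P under 0.05, 324 negative and 243 positive. The test takes sgRNAs as its units and compares 2 libraries of one sort. It holds no information on how the values would vary between sorts. The median gene phenotype was −0.0040 with an SD over genes of 0.16, and 62 genes lay below −0.5 while 13 lay above 0.5. The negative calls included ribosome assembly factors (NOL6, DHX37, FCF1, RRP9, BMS1, GNL2 and NIP7), H/ACA proteins (DKC1 and GAR1), transcription factors and polymerase subunits (BTAF1, SUPT20H and TWISTNB), and factors for mRNA processing and export (CPSF1, SF3A2, SNRNP27 and THOC2). The other negative calls were ZMYM4, ZNF574, ZFHX2 and FAM3A. The positive calls described here were JARID2, ZNF318, TANK, EVI2A and RAB5C.

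Promoter sequences are shown for the most negative genes with an entry in the RefSeq table (NOL6, RRP9 and DKC1). That of JARID2, the positive gene with the narrowest range over sgRNAs, is shown as well. By their names the sgRNAs of NOL6 spanned 499 bp and those of RRP9 453 bp. This is more than the 250 bases shown, so not all of these sgRNAs can lie within them. Each run is the 250 bases before the gene's start in GRCh38.p14, written along the gene's own strand. These are chr9:33473925-33474174 on the minus strand for NOL6, chr3:51941905-51942154 on the minus strand for RRP9, chrX:154762614-154762863 on the plus strand for DKC1 and chr6:15245819-15246068 on the plus strand for JARID2. Capitals mark a match to CCGGAAG (letters of the ETS motif) or to TATAAA (letters of the TATA box), searched on both strands. A match concerns the letters alone, at any distance from the start, and whether such a site is used was not tested.
NOL6: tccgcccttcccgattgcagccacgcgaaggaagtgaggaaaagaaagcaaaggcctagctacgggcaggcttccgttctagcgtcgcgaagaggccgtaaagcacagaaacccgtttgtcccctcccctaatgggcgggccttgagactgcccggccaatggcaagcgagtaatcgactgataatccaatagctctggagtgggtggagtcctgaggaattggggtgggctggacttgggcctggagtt
RRP9: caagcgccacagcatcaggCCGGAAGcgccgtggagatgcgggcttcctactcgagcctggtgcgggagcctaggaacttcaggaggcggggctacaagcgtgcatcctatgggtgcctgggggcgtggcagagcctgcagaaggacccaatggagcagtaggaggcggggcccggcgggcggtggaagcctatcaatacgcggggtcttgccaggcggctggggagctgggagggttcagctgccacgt
DKC1: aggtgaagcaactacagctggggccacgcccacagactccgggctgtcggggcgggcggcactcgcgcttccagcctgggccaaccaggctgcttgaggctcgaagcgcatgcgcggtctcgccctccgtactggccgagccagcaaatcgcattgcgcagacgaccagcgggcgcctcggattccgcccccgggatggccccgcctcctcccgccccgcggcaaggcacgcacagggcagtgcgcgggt
JARID2: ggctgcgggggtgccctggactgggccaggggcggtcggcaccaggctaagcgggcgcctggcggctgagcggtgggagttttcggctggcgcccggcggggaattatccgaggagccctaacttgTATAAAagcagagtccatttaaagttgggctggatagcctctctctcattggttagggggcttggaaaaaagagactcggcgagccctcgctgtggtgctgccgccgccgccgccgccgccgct
The RRP9 run holds CCGGAAG, 231 bases before the start, and the JARID2 run holds TATAAA, 124 bases before it, while none of the letters searched occur in the runs of NOL6 and DKC1. Among the 23 called genes with an entry, CCGGAAG was present in the promoters of 7 (BTAF1, FCF1, GAR1, NIP7, RRP9, SF3A2 and SNRNP27), all negative. They are 36.8% of the 19 negative genes with an entry, beside 13.0% of the 5567 H456 promoters and 8.82% of all 27305 promoters. TATAAA was present in JARID2 alone, beside 8.39% of H456 and 11.1% of all promoters. The E-box CACGTG, which reads the same on both strands and overlaps neither of the others, was present in ZNF318 alone, beside 7.36% of H456 and 6.49% of all promoters. CPSF1 and EVI2A had no entry. The positions in the sgRNA names were not placed on these runs, since the sources used here do not name their build.

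CPSF1, the largest subunit of the factor that recognizes the polyadenylation signal of mRNA precursors, had the lowest P of the sublibrary. Its 5 sgRNAs had 3231, 1093, 2108, 3358 and 1610 reads in the bottom quartile and 1041, 272, 486, 1091 and 490 in the top quartile. The phenotypes were −0.87, −1.24, −1.35, −0.85 and −0.95, a mean of −1.05 ± 0.23 (SD over sgRNAs, adjusted P = 1.79e-05, exact test). CPSF1 was the only H456 gene with 5 sgRNAs below −0.83, the 1st percentile of the NTC sgRNAs. Of the 14 members of the cleavage and polyadenylation list in H456, 11 were negative and CPSF1 alone passed the test, and their median was −0.11. CSTF1, a subunit of the cleavage stimulation factor, was at −0.44 ± 0.24 (adjusted P = 0.0707, exact test). CSTF2T, a paralog of another subunit of this factor, was on the other side of 0 at 0.41 ± 0.31 (adjusted P = 0.299, exact test).

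The small-subunit processome and early 40S factors had 38 members in H456, of which 36 were negative and 5 passed the test, all of these negative. Their median was −0.27, and they ranged from −1.22 to 0.12. By comparison, 3577 of the 7014 H456 genes were negative.

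NOL6, a component of the processome, had the most negative mean of all H456 genes. Its sgRNAs had 778, 1076, 3161, 1233 and 428 reads in the bottom quartile and 307, 440, 506, 241 and 88 in the top quartile. The phenotypes of −0.57, −0.52, −1.88, −1.59 and −1.51 gave a mean of −1.22 ± 0.62 (adjusted P = 4.82e-05, exact test). The 3 strongest lay within 31 bp of each other by the positions in their names, and the other 2 were 84 bp and 468 bp from the nearest of them. RRP9, which binds the U3 small nucleolar RNA, had 739, 1840, 2603, 2283 and 3015 reads in the bottom quartile and 402, 737, 461, 270 and 845 in the top quartile. Its phenotypes ran from −0.11 to −2.31, with a mean of −1.15 ± 0.88 (adjusted P = 0.0257, exact test). NOL6 and RRP9 thus had sgRNAs whose sizes differed by more than the NTC SD, and RRP9 had both a strong sgRNA and one close to the NTC median.

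DHX37, an RNA helicase that releases U3 from the precursor, had a mean of −0.75 ± 0.25 (adjusted P = 0.000195, exact test) and phenotypes between −1.14 and −0.52. FCF1, a nuclease-family protein of the processome, was at −0.61 ± 0.19, with phenotypes between −0.85 and −0.33 (adjusted P = 0.00204, exact test). BMS1, a GTPase of the processome, was at −0.63 ± 0.37, with phenotypes between −1.03 and −0.09 (adjusted P = 0.041, exact test). Among the members that did not pass, WDR36 was at −0.65 ± 0.54, HEATR1 at −0.51 ± 0.37 and UTP15 at −0.45 ± 0.35. All 3 are WD-repeat or HEAT-repeat proteins of the processome, and their adjusted P values from the exact test were 0.0868, 0.0899 and 0.155.

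Box H/ACA and box C/D ribonucleoprotein assembly had 8 members in H456, of which 6 were negative and 2 passed the test, with a median of −0.34. DKC1 (dyskerin), the pseudouridine synthase of H/ACA particles, had 3338, 3135, 2648, 2535 and 2536 reads in the bottom quartile and 1559, 1312, 491, 492 and 712 in the top quartile. Its phenotypes were −0.33, −0.49, −1.66, −1.60 and −1.07, with a mean of −1.03 ± 0.61 (adjusted P = 0.00113, exact test). The 3 stronger sgRNAs lay within 6 bp of each other, so they share most of their target. GAR1, a further core protein of the same particles, had a mean of −0.52 ± 0.19 (adjusted P = 0.00812, exact test), and its phenotypes lay between −0.72 and −0.36. NOP10, also a core protein, was at −0.91 with 2 sgRNAs of almost the same value in H456 (adjusted P = 0.0784, exact test). These 2 sgRNAs carry the same reads as sgRNAs listed under NUTM1, so the value belongs to both names. NUFIP1 and SHQ1, assembly factors of box C/D and H/ACA particles, were at −0.49 ± 0.37 and −0.19 ± 0.22 and did not pass.

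The large-subunit assembly list had 42 members in H456, of which 35 were negative and 2 passed the test, both negative. The median was −0.19, between the medians of the small-subunit list and of all genes. GNL2, a nucleolar GTPase, had a mean of −0.49 ± 0.22 (adjusted P = 0.0216, exact test), with phenotypes between −0.83 and −0.30. NIP7, a factor of 60S assembly, had a mean of −0.51 ± 0.27 (adjusted P = 0.0295, exact test). LSG1, TEX10 and DDX56, a GTPase, a component of the Rix1 complex and a helicase of 60S maturation, were at −0.42 ± 0.27, −0.33 ± 0.10 and −0.29 ± 0.13, and none passed. No cytosolic ribosomal protein gene had a value in H456.

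Of the 26 RNA polymerase I and III genes in H456, 11 were negative and 15 positive, the median was 0.02, and TWISTNB alone passed. TWISTNB is the subunit of RNA polymerase I that is now named POLR1F. Its 4 sgRNAs had 959, 1850, 1120 and 749 reads in the bottom quartile and 397, 670, 476 and 326 in the top quartile, which gave −0.53 ± 0.12 (adjusted P = 0.0217, exact test). Among the others, BRF1, a subunit of the initiation factor of polymerase III, was at 0.25 ± 0.16, and SNAPC1, of the complex that serves small nuclear RNA genes, was at −0.13 ± 0.13.

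BTAF1, the ATPase that removes the TATA-binding protein from DNA, was the one call among 17 members of the polymerase II and general factor list, whose median was −0.03. Its mean was −0.65 ± 0.25 (adjusted P = 0.00457, exact test), and its phenotypes lay between −0.96 and −0.28. GTF2A1, the large subunit of TFIIA, was positive at 0.35 ± 0.13 without passing (adjusted P = 0.0928, exact test). SUPT20H, a subunit of the SAGA coactivator, had a mean of −0.69 ± 0.45 (adjusted P = 0.017, exact test). Its strongest sgRNA, at −1.39, had 209 reads in the bottom quartile and 47 in the top quartile, and the next was at −0.81. Without sgRNAs that had fewer than 50 reads in one of the libraries SUPT20H did not pass. None of the 29 Mediator members in H456 passed, 17 were negative, and their median was −0.07. The most extreme of them that the naming rule picked, MED10, was at −0.39 ± 0.35.

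Of 53 core spliceosome genes 36 were negative and 2 passed, with a median of −0.07. SF3A2, a subunit of the U2 particle, had a mean of −0.51 ± 0.12 at its first start site (adjusted P = 0.00568, exact test), from sgRNAs with 279 to 978 reads in the bottom quartile and 130 to 397 in the top quartile. SNRNP27, of the U4/U6.U5 particle, had the smallest size of all calls, −0.38 ± 0.08 (adjusted P = 0.0401, exact test), and its phenotypes lay between −0.51 and −0.30. In H456, 176 genes had a mean phenotype at least as large in size as that of SNRNP27, so size alone did not set the calls. CWC15, a further splicing factor, was at −0.35 ± 0.15 and did not pass. THOC2, the scaffold of the THO complex that couples transcription to mRNA export, was the one call among 28 nucleoporin and export genes. Its mean was −0.57 ± 0.31 (adjusted P = 0.0262, exact test), and the median of the list was −0.12. Of the 17 RNA exosome genes in H456, 14 were negative and none passed, with a median of −0.14. EXOSC2, a cap subunit of the exosome, was lowest in P at −0.38 ± 0.22 (adjusted P = 0.147, exact test).

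The remaining negative calls have no shared role in the lists. ZMYM4, a zinc finger protein, had a mean of −0.61 ± 0.18 (adjusted P = 0.00331, exact test) with 1 weaker sgRNA at −0.30 and 4 between −0.76 and −0.64. ZNF574, a zinc finger protein, was at −0.55 ± 0.23 (adjusted P = 0.0129, exact test). FAM3A, a secreted cytokine-like protein, was at −0.42 ± 0.11 (adjusted P = 0.0282, exact test), with phenotypes between −0.59 and −0.29. ZFHX2, a homeobox and zinc finger protein, was at −0.48 ± 0.26 at its second start site and was the call nearest to the threshold (adjusted P = 0.048, exact test). RAB5C at 0.0446 and BMS1 at 0.041 were the next calls inside it by adjusted P. Just outside lay CLRN3, a tetraspan membrane protein, at −0.44 ± 0.19, PQBP1, a binding protein of spliceosomal factors, at −0.38 ± 0.11, and RPRD1B, which binds the tail of RNA polymerase II, at −0.48 ± 0.31. Their adjusted P values from the exact test were 0.0504, 0.0507 and 0.0512.

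Of the positive calls, JARID2, a subunit of Polycomb repressive complex 2, had the most uniform sgRNAs. They had 1316, 2650, 771, 489 and 1114 reads in the bottom quartile and 1078, 2156, 688, 388 and 863 in the top quartile. After division by the library totals this gave phenotypes of 0.48, 0.47, 0.60, 0.43 and 0.40, with a mean of 0.48 ± 0.08 (adjusted P = 0.0106, exact test). The 5 sgRNAs lay within 35 bp, the shortest stretch among the called genes. Of these, 3 lay within 6 bp of each other, so these 3 share most of their target. Of the 14 Polycomb and H3K36 methylation genes in H456, 11 were positive and JARID2 alone passed, with a median of 0.11. MTF2, a further accessory subunit of the same complex, was at 0.24 ± 0.18, BCOR, of a Polycomb repressive complex 1 variant, was at 0.21 ± 0.13, and CBX7, a chromodomain reader of H3K27 methylation, was at 0.15 ± 0.19.

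ZNF318, a zinc finger protein, had a mean of 0.50 ± 0.24 (adjusted P = 0.0256, exact test) with phenotypes between 0.28 and 0.78. Of the 458 genes named ZNF in H456, 217 were negative and 241 positive, and ZNF574 and ZNF318 were the calls. Of the 9 CCR4-NOT and decapping genes, 8 were positive and none passed, with a median of 0.08. DCP2, the decapping enzyme, was at 0.32 ± 0.11 (adjusted P = 0.154, exact test) and RQCD1, a CCR4-NOT subunit now named CNOT9, was at 0.41 ± 0.40.

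TANK, an adaptor of TRAF proteins and TBK1, had the largest positive mean among the calls, 0.60 ± 0.31 at its second start site (adjusted P = 0.0251, exact test). Its sgRNAs had 933, 919, 855, 118 and 478 reads in the bottom quartile and 840, 608, 707, 142 and 457 in the top quartile, for phenotypes of 0.62, 0.17, 0.49, 1.03 and 0.70. The highest value came from the sgRNA with the fewest reads. EVI2A, a membrane protein gene that lies within an intron of NF1, showed the same feature more strongly. Its sgRNAs had 46, 582, 1598, 1731 and 511 reads in the bottom quartile and 67, 457, 1266, 1215 and 420 in the top quartile. The phenotypes were 1.31, 0.42, 0.43, 0.26 and 0.48, with a mean of 0.58 ± 0.42 and a median of 0.43 (adjusted P = 0.0216, exact test). EVI2A did not pass when its sgRNA with 46 and 67 reads was left out by a minimum of 50 reads in both libraries or of 100 in either.

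RAB5C, one of the RAB5 GTPases of early endosomes, was the one called gene of the endosomal lists. At its first start site the sgRNAs had 1594, 1707, 953, 706 and 2075 reads in the bottom quartile and 1023, 1439, 922, 722 and 1647 in the top quartile. The phenotypes were 0.13, 0.52, 0.72, 0.80 and 0.43, with a mean of 0.52 ± 0.26 (adjusted P = 0.0446, exact test). Of the 9 genes of HOPS, CORVET and RAB5 to RAB7 conversion in H456, 7 were positive, with a median of 0.06. C18orf8, a subunit of the RAB7 activator, was at 0.42 ± 0.55, and ANKFY1, a RAB5 effector, was at 0.12 ± 0.20. RAB5C was also the one call among 29 Rab GTPases, whose median was 0.02. TRAPPC11, a subunit of a TRAPP tethering complex that the study names in its text, was at −0.51 ± 0.37 (adjusted P = 0.155, exact test) and did not pass. The study set its hits by a threshold on effect and P from pseudogenes built of control sgRNAs, a rule that differs from this test.

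The other trafficking lists had no call. Of 19 clathrin and AP2 genes 14 were positive with a median of 0.04, and AP2B1 and AP2S1, subunits of the AP2 adaptor, were both at 0.20. Of 12 COPI coat genes 8 were negative with a median of −0.16, and COPA, COPB2 and COPZ1, subunits of the coat, were at −0.33 ± 0.18, −0.33 ± 0.30 and −0.29 ± 0.20. Of 8 Retromer, Retriever, CCC and WASH genes 5 were negative with a median of −0.05, and COMMD10, of the CCC complex, was at −0.30 ± 0.13 (adjusted P = 0.211, exact test). CAPZA1 and CAPZA2 of the same list were positive, at 0.26 ± 0.22 and 0.15 ± 0.14 (adjusted P = 0.54 and 0.753, exact test). Of 8 sorting nexins 5 were negative with a median of −0.04. Lowest in P were SNX29 at −0.43 ± 0.38 and SNX4 at −0.22 ± 0.19 (adjusted P = 0.271 and 0.575, exact test). SNX27, a cargo adaptor of Retromer, was on the other side of 0 at 0.19 ± 0.22. Few genes of these complexes were in the pool, since H456 gave values for 8 of the 31 names on the Retromer list, 6 of 37 on the ESCRT list and 9 of 37 on the HOPS list.

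In 548 H456 genes more than 1 start site was measured, and each gene was represented by its site of lower P, a choice that was not adjusted for. Of the called genes 5 were of this kind, and in each the other site, with 5 sgRNAs, was near 0 or on the other side of it. For RAB5C it was at 0.04 ± 0.29 (P = 0.94, exact test), for TANK at 0.10 ± 0.25 and for ZNF574 at 0.10 ± 0.32. For ZFHX2 it was at 0.08 ± 0.23, and for SF3A2 at 0.20 ± 0.19 (P = 0.0621, exact test). None of the 5 passed when the sites of a gene were pooled.

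Within a gene the sgRNAs are not replicates, since they share a target. Each of the 26 called genes had all its sgRNAs on one side of 0, which the test favours, and among the 6359 genes with 5 sgRNAs 266 were all negative and 272 all positive. The sgRNAs of a called gene spanned a median of 240.5 bp, from 35 to 681 bp. Of their 129 sgRNAs 47.3% were on the plus strand, beside 49.9% of all H456 sgRNAs. In H456, 1313 sgRNAs had the same reads as one listed under another gene. Of the called genes this held for NIP7, which shared its sgRNAs at −0.93 and −0.49 with COG8, a Golgi tether subunit. COG8 had a mean of −0.33 ± 0.43 (adjusted P = 0.606, exact test), and without shared sgRNAs NIP7 did not pass. In H23, genes within 1000 bp of called genes by sgRNA position were AREL1 beside FCF1 at −0.11, PARP3 beside RRP9 at −0.12, PLEKHJ1 beside SF3A2 at −0.02 and THTPA beside ZFHX2 at −0.13, and none of these passed.

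The large families of H456 had medians close to that of all genes. None of 344 olfactory receptor genes passed, 188 were negative, and their median was −0.02. Before adjustment 30 of these 344 had P under 0.05 in the exact test, 23 negative and 7 positive. Over all 7014 H456 genes 567 (8.08%) did, so the family was not free of low P values. Among 212 SLC transporters 112 were negative, none passed and the median was −0.01, and SLC31A1, the copper importer, was lowest in P at −0.36 ± 0.12 (adjusted P = 0.0766, exact test). Of 199 TMEM genes 86 were negative and none passed, with a median of 0.02. The 65 mitochondrial ribosome genes, 45 of them negative, had a median of −0.02 and no call, and MRPS7, a small-subunit protein, was at 0.33 ± 0.31. Nor was there a call among 30 chromatin remodeler genes (median −0.03), 51 potassium channel genes (0.02), 16 ABC transporter genes (−0.07), 35 genes of mitochondrial import (−0.01) or 10 genes of the ER membrane protein complex (−0.11). Among 12 genes of heme, iron and peroxidase chemistry, which could bear on APEX2 itself, 6 were negative and none passed. The highest mean of this list was that of SLC25A39, at 0.34 ± 0.16 with all 5 sgRNAs positive (adjusted P = 0.149, exact test). FLVCR2, a transporter of heme and choline, was at 0.32 ± 0.36, and SLC25A37, the mitochondrial iron importer, was at −0.18 ± 0.11. Before adjustment 3 of the 12 had P under 0.05 in the exact test, 1 negative and 2 positive. Of the 51 lists with at least 5 genes in H456, 39 had no call, and the medians of these ran from −0.16 to 0.12.

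Single sgRNAs outside the NTC range were mostly poorly read. Of the sgRNAs against genes, 467 (1.26%) lay below −0.83 and 374 (1.01%) above 0.77, the 1st and 99th percentiles of the NTC sgRNAs. The median reads in both libraries together were 507 below, 314 above and 1918 between these limits. The lowest single value, −5.01, came from an sgRNA against PHLDB2 with 110 reads in the bottom quartile and 2 in the top, and the highest, 2.89, from one against FLVCR1 with 14 and 61. Neither gene passed. Genes with 3 or more sgRNAs below the limit were CPSF1, DKC1, NOL6, RRP9 and ESF1, and 1 gene, KIAA0922, had 3 above it. ESF1, a nucleolar protein of the processome list, had a mean of −0.67 ± 0.83 from 3 negative and 2 positive sgRNAs. KIAA0922 (TMEM131L) was at 0.58 ± 0.33 (adjusted P = 0.0943, exact test). ESF1 and KIAA0922 were named after their values were seen. The 68 sgRNAs just inside the read minimum, with 50 to 59 reads in the better library, had phenotypes with an SD of 1.18, and the 72 just outside it, with 40 to 49 reads, had an SD of 1.59.

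The share of reads per sgRNA, averaged over both quartiles and set against the NTC median on the log2 scale, had a median of −0.09 over genes, and 5% of genes lay below −1.58 and 5% above 0.73. Called negative genes had a median of −0.12 and called positive genes one of 0.24, and the lowest share among the called genes was that of SF3A2 at −1.57. With no library of cells before selection these shares do not separate growth from the makeup of the pool. The lowest shares among genes with at least 5 sgRNAs were those of OR2C3 at −2.85, SLC24A3 at −2.80, TMEM86A at −2.79, FLVCR1 at −2.77 and CMTM3 at −2.74. The SDs of their phenotypes were 0.71, 0.61, 0.53, 1.84 and 0.84. The highest were those of H2AFB1, H2AFB2 and H2AFB3 at 2.30 and of FAM203A and FAM203B at 2.08, near-identical copies whose sgRNAs carry the same reads, so their values cannot be told apart. The phenotypes of these copies were −0.02 ± 0.11 and −0.04 ± 0.08.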

How the data were processed

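The authors amplified integrated sgRNAs from genomic DNA of sorted cells with 27 PCR cycles and counted reads per sgRNA with ScreenProcessing. The deposited files hold raw counts without normalization, with 209070 sgRNA names in each of 6 libraries. There are no molecular identifiers, so counting errors cover read counting only.

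Shares were taken of each library's total. If either count of an sgRNA was 0, both were raised by 1. A gene's phenotype is the mean over at least 2 sgRNAs at one start site, given ± SD over sgRNAs (the one of lower P where several were measured). P came from the exact two-sided Mann-Whitney U test against the sublibrary's own NTC sgRNAs and was adjusted (Benjamini-Hochberg) over 19156 gene entries, those of H17 and H23 included. Python 3.11.15, numpy 2.4.6, pandas 2.3.3 and scipy 1.17.1 were used, and R 4.3.3 with edgeR 4.0.16 and DESeq2 1.42.0 for scaling factors alone, since 1 library per group leaves no residual degrees of freedom for a count model. The procedure was tested on simulated data. These gave every sgRNA the same spread beyond read counting, unlike the NTC sgRNAs, whose spread was wider at few reads.

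Named were all called genes (some that the rule picks are not reported here), genes that share sgRNAs with them, genes the study names, up to 3 further members of each list by lowest P, the 3 genes on either side of the threshold, and the 5 genes with the highest and the lowest share of reads. Lists with at least 5 members in H456 are described by counts and medians, and lists not printed had no call. The members and lists were chosen with earlier results of these data known. Promoter sequences are from RefSeq (GRCh38.p14), and neighbours were found by sgRNA position on the chromosome that RefSeq gives. The alternatives covered the read minimum, added counts, centring, the comparison set, the summary over sgRNAs, start sites, shared sgRNAs, thinning, membership and the adjustment.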

Additional observations from a re-analysis of the deposited data

How the results depend on the processing

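No paired analysis was possible because each group held 1 library, and for the same reason no replicate could be left out. Of 17 alternatives, 5 left every P as it was by construction (other centring, TMM factors, DESeq2 size factors, and the median or the mean of the 3 furthest sgRNAs as summary). Over the 12 that could change the test, the number of called genes stayed within 1.5 times of 26 in 10. With olfactory receptor sgRNAs in place of NTC sgRNAs 8 genes passed, 7 negative and 1 positive, all among the 26. They were CPSF1, NOL6, DHX37, DKC1, FCF1, ZMYM4, BTAF1 and JARID2. The positive calls RAB5C, TANK, EVI2A and ZNF318 did not pass in that comparison, nor did the other negative calls. Without the sgRNA furthest from 0 of each gene 5 passed, 5 negative and 0 positive, which leaves fewer sgRNAs per gene and takes away the strongest. These 5 (CPSF1, NOL6, DHX37, DKC1 and FCF1) passed under each of these 12. Pooling start sites left 21, a minimum of 50 reads in both libraries gave 31, and adjustment over H456 alone gave 22, without BMS1, RAB5C, SNRNP27 and ZFHX2. ZFHX2 did not pass after thinning to the smaller total. No called gene changed sign. Among the other named genes the sign changed in 15 cases over the 17 alternatives. Without the sgRNA furthest from 0 these were OR2C3 at 0.21, FLVCR1 at −0.67, CMTM3 at 0.063 and H2AFB1, H2AFB2 and H2AFB3 at 0.014. With at least 50 reads in both libraries they were OR2C3 at 0.18, FLVCR1 at −0.15 and CMTM3 at 0.36, and with at least 100 in either ABCB5 at −0.12 and FLVCR1 at −0.67. With the median over sgRNAs they were OR2C3 at 0.18 and FLVCR1 at −0.14, with pooled start sites VAMP8 at −0.012, and without shared sgRNAs SEC31B at −0.15. The cause was not tested. NTC sgRNAs with up to 500 reads had an SD of 0.725, against a median counting error of 0.168.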

Other observations

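Peroxisome assembly genes, which serve the import of proteins into peroxisomes, were looked at after their values were seen and had no list. In H456, 10 PEX genes had values, 7 were negative and none passed the adjusted exact Mann-Whitney test, while 3 had P under 0.05 before adjustment. Over all 7014 H456 genes 3577 were negative, 26 (0.371%) passed, and 567 (8.08%) had P under 0.05 before adjustment in the same test. PEX13 and PEX14, which form the docking complex of the import machinery, were at −0.51 ± 0.26 (adjusted P = 0.073, exact test) and −0.44 ± 0.22 (adjusted P = 0.0651, exact test), with all 5 sgRNAs negative in both. PEX5, the import receptor itself, was at −0.08 ± 0.11, and PEX3 and PEX16, which act in membrane assembly, were at −0.0026 ± 0.10 and 0.10 ± 0.33. The median of the 10 was −0.026.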
